A study of Mus musculus with 4 samples.

Results

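Genes of the cell cycle and of DNA replication were followed in group 2 innate lymphoid cells (ILC2) from the pancreatic islets of fed and fasted mice. The set was given as 31 gene symbols. It was chosen by name rather than by a rule on measured values, but with earlier results of these data known. Of the 31 symbols, 30 matched a row of the count table, which held 15835 genes, and Aurkb was not analysed here. ILC2 are tissue-resident lymphocytes known for secreting type 2 cytokines. The libraries were made by CEL-seq2, a method that primes on the poly(A) tail and reads the 3′ end of each transcript, so levels were not divided by gene length. All mice were labelled C57BL/6j, and the labels name feeding as the one difference. Each of the 4 deposited samples is a multiplexed file of both conditions, so the groups come from the column names of the count table: 4 fed libraries (columns named control) and 4 fasted libraries, numbered 1, 3, 4 and 5 in each group. Values by library are given in that order, and group values are means ± SD (n = 4) unless an SE is named. How long the fast lasted, how old the mice were and whether each library is a mouse of its own are not stated in the labels used here. The p-values therefore measure variation among these libraries only, and that variation may be technical.

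A cell that divides first licenses its replication origins by loading the MCM2-7 helicase, then copies its DNA with the sliding clamp PCNA and freshly made deoxynucleotides, and finally separates its chromosomes with cyclin B-CDK1 and the Aurora and Polo kinases. In resting cells the mitotic genes are known to be held silent by the DREAM repressor complex, which binds the cell cycle homology region (CHR) of their promoters, whereas the licensing genes answer mainly to E2F factors. Tubulins and the chromatin protein HMGB2 serve in division but are also made by cells that do not divide.

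The promoters of the set carried the CHR and the E2F letters unevenly. RefSeq windows of 300 bases, from 250 before to 50 after the RefSeq gene start on build GRCm38.p6, were matched for 25 of the 30 genes. They were searched on both strands for the CHR (TTTGAA), the CCAAT box (CCAAT) and an E2F site (TTTNNCGC), and matches were allowed to share letters, as a pair of the E2F matches of Mcm6 do. The CHR was present in 8 of 12 mitotic promoters (66.7%), in 1 of 6 licensing and clamp promoters (16.7%) and in 18.1% of all 27025 windows. The E2F letters were in 1 of 12 mitotic promoters (8.33%), in 4 of 6 licensing and clamp promoters (66.7%) and in 5.27% of all windows. At least 2 CCAAT boxes stood in 9 of 12 mitotic windows (75%), in 4 of 6 licensing and clamp windows (66.7%) and in 2 of 3 tubulin and chromatin windows (66.7%), against 12.2% of all windows. A match of this kind describes the letters and does not show a bound site. The 250 bases before the RefSeq start are shown for 5 genes, each with the matched letters in capitals. Cdk1 and Ccnb2 are examples of the mitotic genes, Mcm7 and Mcm6 of the licensing genes and Tuba1b of the tubulins. They are not typical in every respect. Cdk1 was the 1 mitotic gene with E2F letters, and the window of Tubb5 held 2 CCAAT boxes. Those of Mcm2 and Pcna held no E2F letters. RefSeq starts can differ from those of GENCODE, the source of the gene coordinates given below. Mcm7 had 2 windows, of which the first listed was used, and its stretch lay wholly inside the GENCODE gene, which reached 138172422. Stretches of Tuba1b and Cdk1 lay partly inside their GENCODE genes, which reached 98934565 and 69352938.
Cdk1, chr10:69352913-69353162, minus strand: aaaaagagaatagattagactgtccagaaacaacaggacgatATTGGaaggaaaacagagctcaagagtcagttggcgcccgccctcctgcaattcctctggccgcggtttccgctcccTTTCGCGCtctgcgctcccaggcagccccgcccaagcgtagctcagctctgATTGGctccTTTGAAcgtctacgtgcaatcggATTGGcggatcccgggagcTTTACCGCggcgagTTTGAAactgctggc
Ccnb2, chr9:70421555-70421804, minus strand: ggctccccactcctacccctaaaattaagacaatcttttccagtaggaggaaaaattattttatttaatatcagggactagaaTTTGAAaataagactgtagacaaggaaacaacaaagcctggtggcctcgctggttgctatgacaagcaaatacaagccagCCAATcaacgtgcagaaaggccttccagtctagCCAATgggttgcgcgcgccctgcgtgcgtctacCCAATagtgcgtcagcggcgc
Mcm7, chr5:138171884-138172133, minus strand: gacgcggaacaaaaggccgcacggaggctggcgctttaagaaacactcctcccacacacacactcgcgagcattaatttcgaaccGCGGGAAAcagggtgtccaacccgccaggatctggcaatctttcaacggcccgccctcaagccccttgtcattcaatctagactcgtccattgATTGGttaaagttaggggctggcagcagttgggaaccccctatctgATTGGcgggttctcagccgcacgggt
Mcm6, chr1:128359706-128359955, minus strand: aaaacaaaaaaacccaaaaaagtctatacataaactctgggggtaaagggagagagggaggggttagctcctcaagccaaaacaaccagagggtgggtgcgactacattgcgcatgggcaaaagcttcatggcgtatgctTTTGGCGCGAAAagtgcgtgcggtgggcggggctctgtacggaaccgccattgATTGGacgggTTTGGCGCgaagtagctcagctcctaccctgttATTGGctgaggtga
Tuba1b, chr15:98934391-98934640, minus strand: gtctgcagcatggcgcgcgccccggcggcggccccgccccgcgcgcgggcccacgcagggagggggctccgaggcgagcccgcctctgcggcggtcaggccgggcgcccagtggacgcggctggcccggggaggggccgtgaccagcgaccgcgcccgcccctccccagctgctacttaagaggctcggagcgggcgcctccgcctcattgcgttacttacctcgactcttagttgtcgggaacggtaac
In these stretches Cdk1 held 2 CHR, 3 CCAAT and 2 E2F matches, Ccnb2 held 1 CHR and 3 CCAAT matches, Mcm7 held 2 CCAAT and 1 E2F match, Mcm6 held 2 CCAAT and 3 E2F matches, and Tuba1b held none of the 3.

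Library totals ran from 1797504 to 25252366 counts, and 7700 genes passed the filter on low counts. ILC2 markers such as Thy1, Klrg1 and Gata3 had counts in every library, and all 11 of the listed markers had counts in each group, although Rora, a transcription factor of ILC2, had only 5 counts in the fed and 1 in fasted libraries. The 11 ILC2 markers together took between 0.101% and 0.551% of counts. The 19 measured markers of acinar cells, the exocrine cells around the islets, took 28.4%, 34.1%, 50.9% and 45.8% of counts in the fed libraries. Fasted libraries 1 and 3 were poor in them, at 2.21% and 2.47%, and the other fasted ones held 47.6% and 50.2%. Libraries 1 and 3 thus held the lower shares in both groups, by a wider gap when fasted. Levels are in CPM, the counts of a gene for each 1000000 counts of a library size scaled by TMM, which lessens the weight of such dominant genes, unless another scale is named.

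The set spanned more than 4 orders of magnitude, and its levels were ordered largely by role. By the mean over all 8 libraries, 10 genes were near zero (under 1 CPM), 14 were low (1 to under 10 CPM) and 6 were well expressed (10 CPM or more). All 10 near-zero genes were mitotic, and the other 4 mitotic genes measured were low. All 8 genes of licensing and the clamp lay at 1.01 CPM or more, with Mcm2, Mcm7 and Pcna well expressed. The 4 enzymes of deoxynucleotide synthesis were all low, and Stmn1, Tubb5 and Tuba1b made up the rest of the well-expressed class. Without fasted library 1, Cdk1, Ccnb2, Ube2c and Tk1 lay under 1 CPM, Tk1 at a mean of 0.563 CPM, so the near-zero class then held 14 genes of which 13 were mitotic. Across all 15835 genes, 6460 were near zero, 5365 low and 4010 well expressed. The class limits fell between Birc5 at 0.65 CPM and Gmnn at 1.01 CPM, and between Mcm6 at 9.97 CPM and Stmn1 at 21.4 CPM. With library totals alone as scaling, 11 genes of the set were near zero, 12 low and 7 well expressed. Gmnn then lay at 0.850 CPM, in the near-zero class, and Mcm6 at 11.5 CPM.

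**Figure D1:**
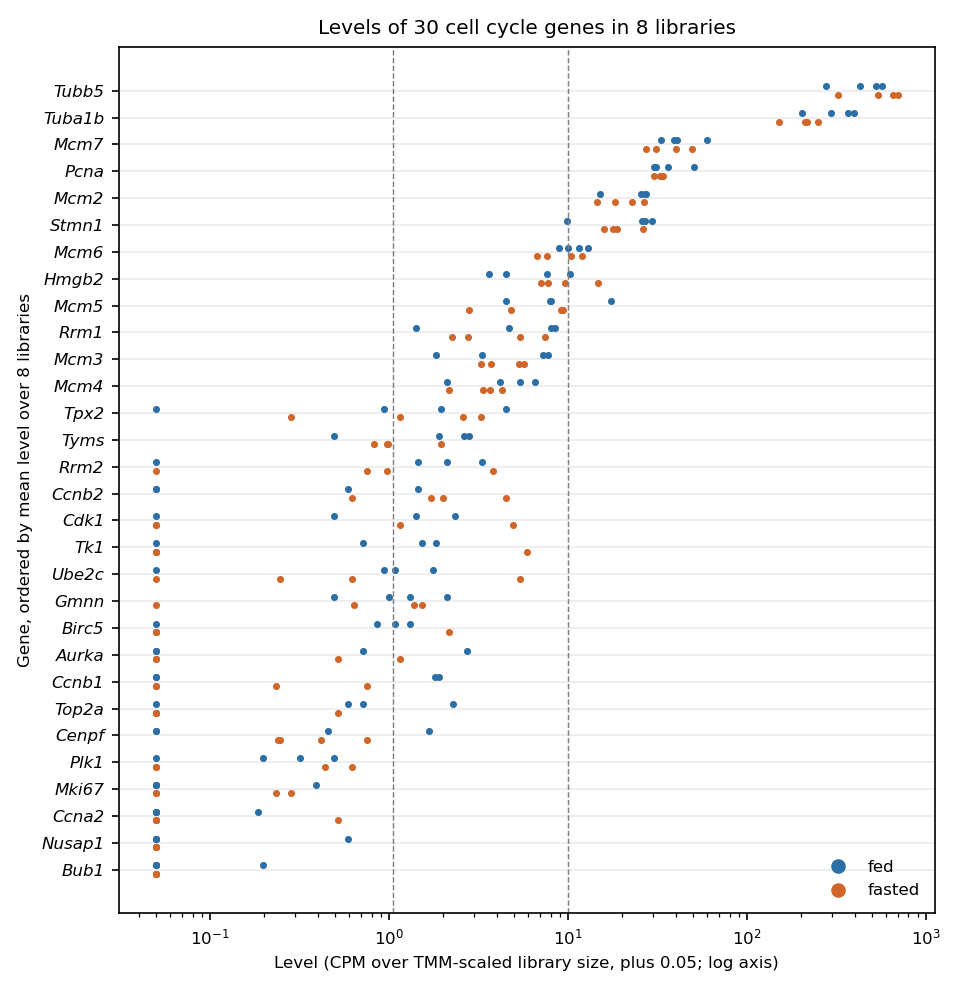
Level of each of the 30 genes in each of 8 libraries, as CPM over TMM-scaled library sizes plus 0.05 on a log axis, so that points at the left edge are libraries with 0 counts. Blue points are fed and orange points fasted libraries, and dashed lines mark the limits of the classes at 1 and 10 CPM. Mitotic genes fill the lower rows, and Tubb5 and Tuba1b stand apart at the top.

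Mitotic transcripts were scarce in both groups. The 14 measured genes together had 453 counts out of 58892310, and 54 of their 112 gene-by-library values were 0. None was seen in all 8 libraries. Mki67, which encodes the proliferation antigen Ki-67 (chromosome 7, 135689784 to 135716361 in mm10), had 0, 0, 0 and 1 counts in the fed libraries and 1, 0, 1 and 0 counts in the fasted ones. Top2a, the topoisomerase that untangles sister chromosomes, had 5, 4, 9 and 0 counts in the fed and 2, 0, 0 and 0 counts in the fasted ones. Its fed counts were spread over 3 libraries and its fasted counts came from fasted library 1 alone. Cdk1, the kinase that drives entry into mitosis, had 0, 17, 6 and 4 counts in the fed and 21, 0, 6 and 0 counts in the fasted ones, with values that overlapped between the groups. Bub1, a spindle checkpoint kinase, and Nusap1, a spindle-associated protein, were each seen in 1 fed library only, with 2 and 4 counts.

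A count of 0 was compatible with different upper limits, since 3 counts corresponded to 0.222 CPM in fed library 4, the deepest, and to 1.34 CPM in fed library 1, the shallowest. These limits cover counting error only. No mitotic gene passed the filter on low counts, so the main test between fed and fasted mice left them out, and no fold change is given for them. In the edgeR fit without that filter all 14 were tested, 6 with positive and 8 with negative log2 fold changes, and 0 were called or had an unadjusted p under 0.05. Among the 34 values above 0 of the near-zero genes, 8 were a single count and 18 were 3 counts or more, the highest being the 25 counts of Ccnb1 (cyclin B1) in fed library 4.

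Summed over the 14 genes, mitotic transcripts stood at 7.14, 9.20, 13.7 and 4.45 CPM in the fed libraries and 20.1, 5.27, 5.71 and 5.12 CPM in the fasted ones. The fasted libraries other than library 1 lay close together, and fasted library 1 was above all other libraries. The mean was 8.62 ± 3.89 CPM (fed) and 9.06 ± 7.38 CPM (fasted), and 5.37 ± 0.31 CPM (SD, n = 3) over the fasted libraries without library 1. That library held 86 of the 171 fasted mitotic counts (50.3%) from a total of 2041697 counts. It was the highest fasted library for 9 of the 14 genes. The genes that weighed most there were Ube2c, the ubiquitin-conjugating enzyme of the anaphase-promoting complex, at 5.38 CPM, Cdk1 at 4.91 CPM, Ccnb2 (cyclin B2) at 4.44 CPM and Birc5 (survivin, of the chromosomal passenger complex) at 2.11 CPM. Tpx2, a spindle assembly factor and the most abundant mitotic gene by its mean, was low there, at 0.234 CPM in fasted library 1 and 3.22 CPM in fasted library 5. Tk1, the thymidine kinase of S phase, had 25 counts in fasted library 1 and 0 in the other fasted libraries, whereas Gmnn (geminin, the licensing inhibitor) had 0 counts in fasted library 1 and from 3 to 8 in the others.

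**Figure D2:**
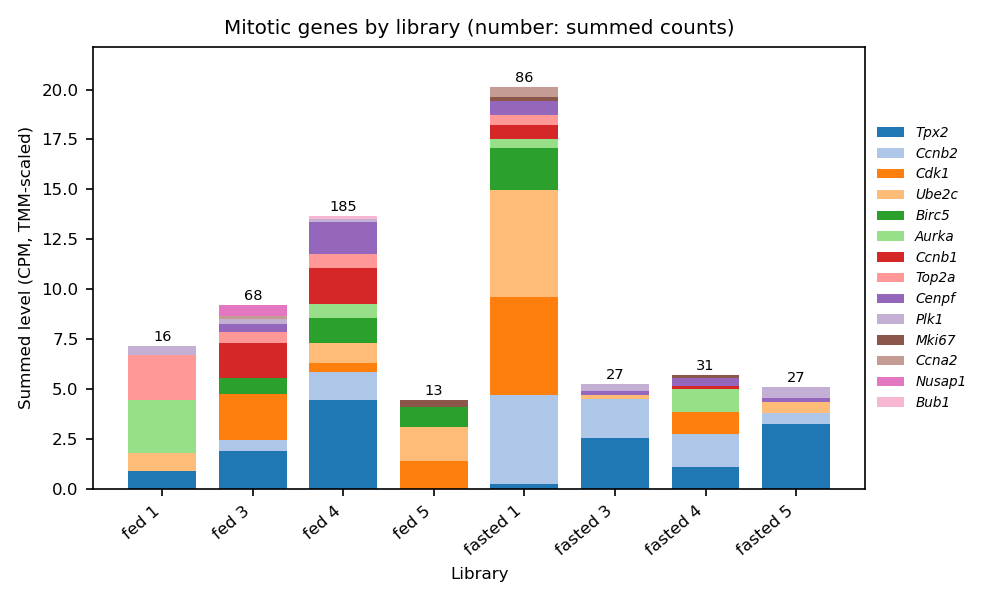
Summed level of the 14 mitotic genes in each library, as stacked bars by gene in CPM over TMM-scaled library sizes, with the summed counts printed above each bar. Fasted library 1 reaches 20.1 CPM from 86 counts, and the other fasted libraries lie between 5.12 and 5.71 CPM.

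Markers of other cells were not level across these libraries either. The 6 measured myeloid markers had 66 counts in fasted library 1 (32.3 CPM of the unscaled library total) and from 0.765 to 6.67 CPM of the total in the other libraries. Of those 66 counts, 50 were from Csf1r, while the macrophage gene Lyz2 had 2 counts in all 8 libraries together. On the TMM scale the sum was 15.4 CPM in fasted library 1 and at most 3.32 CPM elsewhere. The 6 measured T cell markers stood on the TMM scale at 40.6 to 57.5 CPM in fed and 65.8 to 81.4 CPM in fasted libraries, without overlap. On that scale 2.21% of all genes tested had every fasted library above every fed one. As CPM of the total the T cell markers overlapped, at 21.7 to 55.6 in fed and 45.3 to 170 in fasted libraries. Cd3g (855 fed and 965 fasted counts) and Lef1 (210 and 419) gave most of the T cell marker counts. Cd3e had 32 and 118 counts, and Cd3d had 9 and 11. Which cells these counts came from was not tested, so the sum does not show a number of T cells. The 5 measured B cell markers ran from 0.677 to 6.503 CPM (fed) and from 3.12 to 11.9 CPM (fasted) on the TMM scale, with overlap. As CPM of the total the B cell markers did not overlap, from 0.854 to 3.48 (fed) and from 4.46 to 7.35 (fasted). The 2 CD8 genes of the T cell list had 17 counts in all (Cd8a 11 fed and 0 fasted, Cd8b1 4 and 2), and Cd4 was not analysed here. The part of other cells in the mitotic signal of fasted library 1, or in the differences between groups given here, was not tested. In bulk RNA a smaller number of dividing cells and less RNA per dividing cell cannot be told apart.

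Mcm2 to Mcm7 and Pcna had counts in every library, and none of these 7 genes passed the test between fed and fasted mice. Pcna, the sliding clamp of DNA polymerase (chromosome 2, 132249162 to 132253314), stood at 30.3, 50.5, 36.1 and 31.2 CPM in the fed libraries and 30.2, 34.0, 32.8 and 33.4 CPM in the fasted ones. The fasted values were close together and all but the lowest lay inside the fed range. Mcm7, a subunit of the helicase (chromosome 5, 138164583 to 138172422), stood at 59.8, 40.9, 33.2 and 39.0 CPM in the fed and 27.1, 40.4, 31.0 and 49.1 CPM in the fasted ones. Mcm2, another subunit (chromosome 6, 88883474 to 88898780), stood at 25.4, 27.1, 15.0 and 27.4 CPM in the fed and 14.5, 26.5, 18.3 and 22.7 CPM in the fasted ones. The groups overlapped for both subunits, and fed library 4 was the lowest fed library for each. The log2 fold changes, fasted minus fed, were -0.19 ± 0.24 for Pcna, -0.22 ± 0.28 for Mcm7 and -0.20 ± 0.30 for Mcm2 (SE), each smaller than its error. A single library left out brought Pcna to -0.0067 (without fed library 3), Mcm7 to -0.027 (without fed library 1) and Mcm2 to -0.071 (without fasted library 1).

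The other helicase subunits were low. Mcm6 was at 10.8 ± 1.78 CPM (fed) and 9.12 ± 2.44 CPM (fasted), and Mcm5 at 9.44 ± 5.59 and 6.499 ± 3.27 CPM. Mcm3 and Mcm4 were between 3.32 and 4.99 CPM in each group's mean. All 7 tested genes of licensing and the clamp had negative log2 fold changes, where 49.8% of all genes tested were positive. They ran from -0.56 ± 0.53 for Mcm5 to -0.18 ± 0.54 for Mcm3, although with library totals as the only scaling Mcm2, Mcm3, Mcm5, Mcm6, Mcm7 and Pcna turned positive, when the median of all genes also rose to 0.51. Leaving out fasted libraries 1 and 3, poor in acinar RNA, put Mcm5 at -1.36 ± 0.67 and Mcm3 at -0.55 ± 0.73, whereas Mcm5 was at -0.086 ± 0.54 without fed library 3, its highest. Gmnn, with 31 fed and 18 fasted counts, did not pass the filter and was not called in the fit without it.

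How even the licensing genes were depended on what they were set against. Their summed counts ran from 60.2 to 256 CPM of the library total, a 4.25-fold range, and from 101 to 164 CPM on the TMM scale, a 1.63-fold range. Set against the counts of the 11 ILC2 markers, which include the cytokine genes Il13, Il5 and Areg, they ran from 43.0 to 59.4 per 1000 marker counts, a 1.38-fold range. On that scale the mean was 53.6 ± 5.30 (fed) and 47.9 ± 4.04 (fasted), and the groups overlapped. Mitotic counts were spread more widely on the same scale, from 1.70 to 8.60 per 1000 marker counts, a 5.05-fold range, from far fewer counts.

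**Figure D3:**
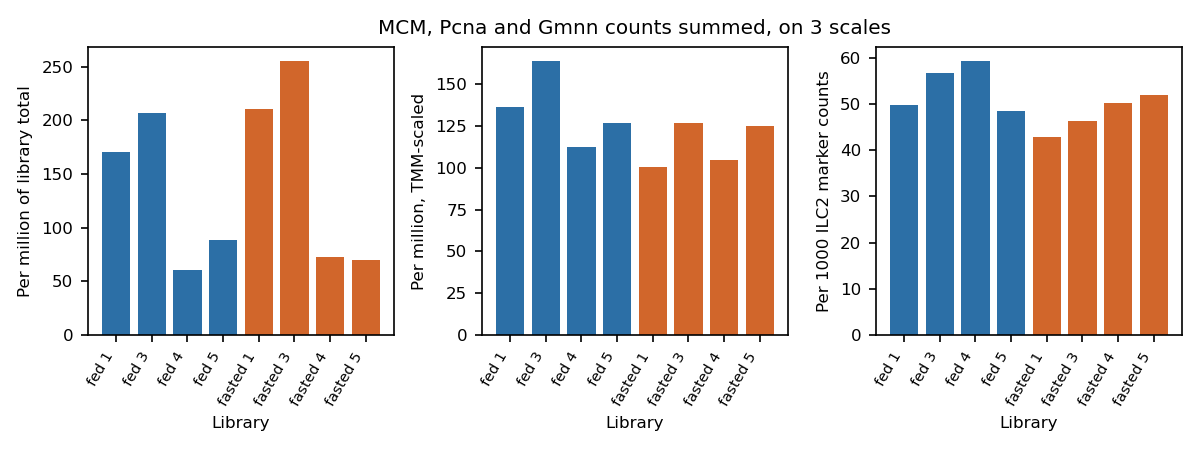
Counts of Mcm2 to Mcm7, Pcna and Gmnn summed in each library on 3 scales: CPM of the library total, CPM of the TMM-scaled size, and per 1000 counts of the 11 ILC2 markers. Blue bars are fed and orange bars fasted libraries. The range narrows from 4.25-fold to 1.63-fold and 1.38-fold from the left to the right panel.

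Enzymes that supply deoxynucleotides were low and uneven. Rrm1, the large subunit of ribonucleotide reductase, stood at 5.61 ± 3.29 CPM (fed) and 4.43 ± 2.41 CPM (fasted), a log2 fold change of -0.34 ± 0.61 (SE), and was the only tested gene of the 4. Rrm2, its small subunit, had 49 fed and 28 fasted counts and was at 0 in fed library 1 and fasted library 3. Tyms, the thymidylate synthase, had 53 and 23 counts and was seen in all 8 libraries. Tk1 had 24 and 25 counts and was at 0 in 4 libraries.

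The most abundant genes of the set were the tubulins, and Tubb5 and Tuba1b had fold changes of opposite sign, neither of which passed the adjusted threshold. Tubb5 (chromosome 17, 35833921 to 35838306) stood at 566, 431, 275 and 526 CPM in the fed libraries and 696, 543, 324 and 653 CPM in the fasted ones. Each fasted library was higher than the fed library of the same number, but the groups overlapped, with library 4 lowest in each group. Tuba1b (chromosome 15, 98931425 to 98934565) stood at 396, 294, 203 and 365 CPM in the fed and 249.8, 210.0, 151 and 217 CPM in the fasted ones. Every fasted library was lower than the fed library of its number, and the groups overlapped only through fed library 4. Whether equal numbers are pairs is not stated, and the share of all genes with such a pattern by number was not counted. The log2 fold change of Tuba1b was -0.60 ± 0.25 (SE; edgeR, unadjusted p = 0.036, Benjamini-Hochberg adjusted p = 1.00), and that of Tubb5 was 0.30 ± 0.29. With the column number as a block, which pairs the libraries, Tuba1b had -0.58 ± 0.16 (edgeR, unadjusted p = 0.0063, adjusted p = 0.56) and Tubb5 0.29 ± 0.15. Without fasted libraries 1 and 3 Tubb5 was at 0.11 ± 0.39. Tubulin genes have close paralogs and pseudogenes, so counts could be split among copies.

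Paralogs of these tubulins were measured as part of a wider list. Tuba1a was at 26.8 ± 10.6 CPM (fed) and 11.6 ± 1.83 CPM (fasted), a log2 fold change of -1.21 ± 0.37 (SE; edgeR, adjusted p = 0.79), and fed library 4, at 11.1 CPM, lay among the fasted values. Tubb4b was at 29.1 ± 8.27 and 18.6 ± 0.59 CPM, at -0.65 ± 0.27, and its groups did not overlap, which held in this direction for 1.31% of all genes tested. Of 8 alpha and beta tubulin genes tested, 6 had negative and 2 positive log2 fold changes (5 and 3 with library totals alone), and none had an adjusted p under 0.05 by edgeR, as for 0% of all genes called.

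Stmn1 and Hmgb2 completed the set. Stmn1, which encodes the tubulin-binding protein stathmin, stood at 25.9, 29.6, 9.90 and 27.1 CPM in the fed libraries and 26.2, 18.7, 15.9 and 17.8 CPM in the fasted ones, at -0.23 ± 0.36. Fed library 4 was again the lowest fed library, and the groups overlapped. Hmgb2, a DNA-bending chromatin protein, was at 6.45 ± 3.03 CPM (fed) and 9.76 ± 3.49 CPM (fasted), at 0.56 ± 0.44.

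None of the 12 genes tested was called between fasted and fed ILC2. By edgeR, 0 of 12 had a Benjamini-Hochberg adjusted p under 0.05, against 0% of all 7700 genes tested, and 1 of 12, Tuba1b, had an unadjusted p under 0.05, against 4.39% of all genes. DESeq2 was fitted to the same 7700 genes and called 17 of them, with 0 among the 12. That fit gave no adjusted p for Mcm4, which therefore could not be called. The groups of none of the 12 failed to overlap, where 2.21% of all genes had all fasted libraries higher and 1.31% had all lower. Of the 12, 2 had a positive log2 fold change, against 49.8% of all genes, and their median was -0.22 against a median of 0.00 (-0.0017) for all genes, with library totals alone as scaling giving 9 positive genes and a median of 0.25 against 0.51. That median was -0.083 without fed library 3 and -0.37 without fed library 4. In simulated libraries of the same depth and spread 32% of 4-fold changes were recovered by edgeR and 0% of 2-fold ones, and with TMM scaling and all 8 libraries no fitted change among the 12 genes reached 2-fold.

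**Figure D4:**
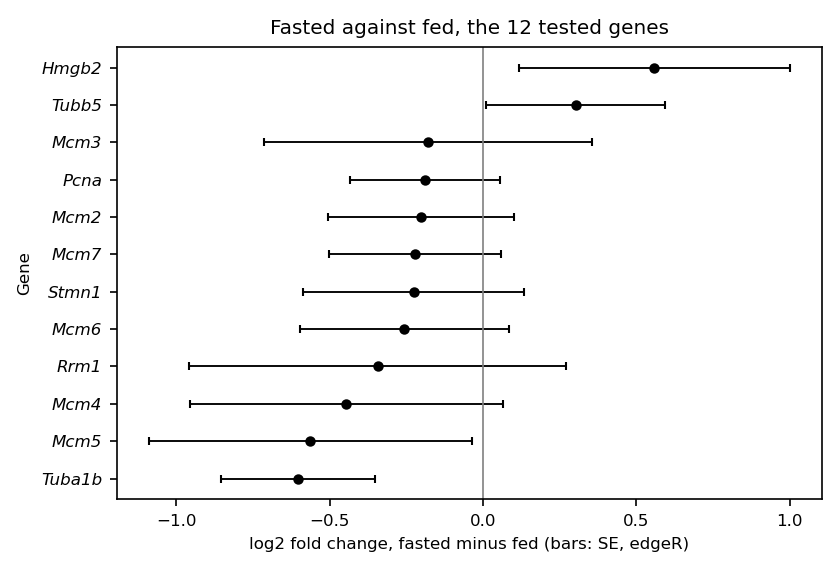
Log2 fold change, fasted minus fed, for the 12 tested genes, with an SE computed from the F statistic of edgeR. With TMM scaling 10 of the 12 points lie left of 0, from Tuba1b at -0.60 to Mcm3 at -0.18, and Tubb5 and Hmgb2 lie right of it; with library totals alone 9 of 12 lie right of 0.

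Other genes of the cell cycle were read from lists of 146 genes, of which 141 were measured and 82 tested. None was called in either direction by edgeR, 4 had an unadjusted p under 0.05, a share near the 4.39% of all genes, and the median log2 fold change was 0.03, with 44 positive and 38 negative. Among inhibitors of cyclin-dependent kinases and antiproliferative genes, 6 of 11 measured genes were well expressed, 3 low and 2 near zero. Btg1, an antiproliferative cofactor of mRNA deadenylation, stood at 178, 177, 170.04 and 202 CPM in the fed libraries and 320.02, 282, 215 and 212 CPM in the fasted ones. Its groups did not overlap, as for 2.21% of all genes in this direction, and the log2 fold change was 0.50 ± 0.20 (SE; edgeR, unadjusted p = 0.032, adjusted p = 1.00). The related Btg2 was at 780.2 ± 62.0 CPM (fed) and 1006 ± 356 CPM (fasted), highest in fasted libraries 1 and 3, the acinar-poor ones. Cdkn1a, the inhibitor p21, was at 219 ± 45.0 (fed) and 314 ± 125 CPM (fasted), with 479 and 343 CPM in the same acinar-poor fasted libraries and 221 and 212 CPM in fasted libraries 4 and 5. Cdkn1b, the inhibitor p27, was at 81.9 ± 32.9 and 100.3 ± 15.6 CPM, with overlapping groups for both. Of the 9 tested genes of this list 8 had positive log2 fold changes, with a median of 0.38, where 49.8% of all genes were positive, and 0 passed the adjusted threshold. With library totals alone the list's median was 1.06, when that of all genes was 0.51.

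The cyclins and kinases of G1 were split between abundant and scarce members. Ccnd2 (cyclin D2) stood at 251, 233, 163 and 115 CPM in the fed and 97.3, 155, 169 and 123 CPM in the fasted ones, a log2 fold change of -0.49 ± 0.28. Its partner Cdk4 was at 169.96 ± 48.5 CPM (fed) and 218 ± 39.5 CPM (fasted), at 0.36 ± 0.24. Ccnd3 (cyclin D3) was much lower, at 5.15 ± 2.52 and 4.26 ± 2.56 CPM. The pocket protein gene Rbl2, a subunit of the DREAM complex, had 15 fed and 23 fasted counts and was not tested, and E2f4, the repressor E2F of that complex, was at 50.3 ± 12.4 and 44.2 ± 9.69 CPM.

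Genes of the spindle were mostly near zero. Of 20 further spindle and kinetochore genes 14 were near zero and 3 were tested, with Bub3, a checkpoint protein, at 44.7 ± 11.2 CPM (fed) and 54.1 ± 12.5 CPM (fasted). Of 17 genes of origin licensing and firing 7 were near zero and 6 were tested; Cdt1, which loads the helicase, was at 9.35 ± 4.83 and 17.0 ± 9.96 CPM and was highest in fasted library 1, at 31.8 CPM. Among 23 replication fork genes 15 were tested, and Rpa2, of the single-strand binding protein, had a log2 fold change of 0.96 ± 0.42 (SE; edgeR, unadjusted p = 0.042, adjusted p = 1.00). The anaphase-promoting complex, which also works outside mitosis, had 14 of 16 genes tested, led by Anapc2 at 117 ± 39.4 and 109.6 ± 16.6 CPM. Its subunit Anapc5, at 38.2 ± 3.68 and 26.8 ± 4.62 CPM, was lower in every fasted than in any fed library, again with 1.31% of all genes.

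**Figure D5:**
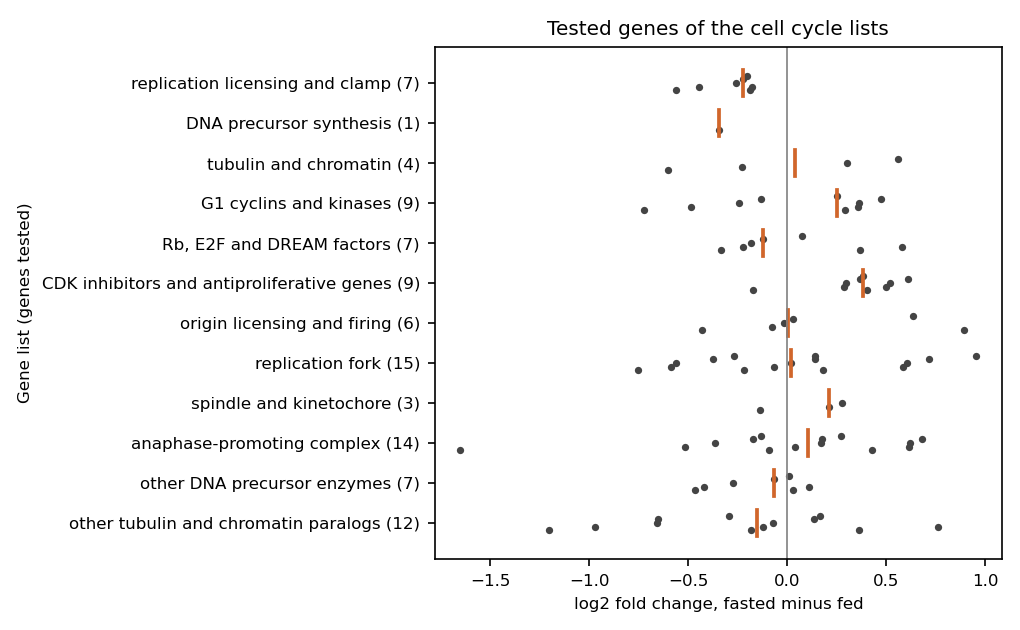
Log2 fold change, fasted minus fed, of each tested gene of the set and of the wider lists, 1 row per list with the number of genes tested in brackets. Points are genes and orange bars list medians, which run from -0.34 for the single tested enzyme of DNA precursor synthesis to 0.38 for the inhibitors; no gene was called.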

How the data were processed

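The authors deposited raw gene counts, which the values show to be whole numbers. The submitters' processing notes name STAR, edgeR and mm10; the labels used here leave unsaid whether reads or molecular identifiers were counted. If reads, 1 molecule can give several counts. Of the per-sample columns 2 were not used, and 11 spike-in rows with 20 counts were left out. Fits used edgeR 4.0.16 under R 4.3.3: low genes were dropped by filterByExpr, sizes scaled by TMM, and a robust quasi-likelihood test run without covariates, two-sided and adjusted by Benjamini-Hochberg over 7700 genes with a threshold of 0.05. The SE of an edgeR log2 fold change was computed as its size divided by the square root of its F statistic. The fit was tested on simulated data, with 1 false call among 33. DESeq2 1.42.0, other scalings, no filter, a replicate block and left-out libraries were alternatives. Deviations from the group means were correlated between libraries of the same column number (r of 0.23, 0.14, 0.50 and 0.13 over tested genes). The 0.50, for the libraries numbered 4, was the highest of all pairs. Some unlike numbers exceeded 0.14 (0.22 for fed 4 with fasted 5, 0.20 for fed 1 with fasted 3). Others were negative, down to -0.40 for fed 4 with fasted 1. The numbers come from the column names and were taken as pairs only in the replicate block, so the main test was unpaired. Libraries within a group were not repeats of each other (the lowest chi-square per gene between a pair was 10.8). The members, lists and tests were chosen with earlier results of these data known. Per-library values are given for well-expressed members and for Mki67, Top2a and Cdk1; in the wider lists the genes with the smallest p, the most abundant ones and a fixed few (Cdkn1a, Cdkn1b, Ccnd2, Ccnd3, Btg1 and Rbl2) are named. Other genes named for a contrast were chosen after their values were seen. Gene coordinates are from GENCODE vM21 on mm10, and promoters from RefSeq. Figures were drawn with matplotlib 3.10.9.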

Additional observations from a re-analysis of the deposited data

Results flagged for a closer look

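The summed level of the 14 mitotic genes in fasted library 1, at 20.1 CPM, lay far from the other fasted libraries, with a gap of 0.96 of the group's whole range. The Mcm2 level in fed library 4, at 15.0 CPM, lay below the other fed libraries, with a gap of 0.84 of the whole fed range. Each gap exceeded Dixon's 95% critical value for 4 samples. They were 2 of 32 groups of values checked, and chance puts about 1 in 20 groups past that value.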

How the results depend on the processing

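No member was called in any setting run, leaving out each library included, though DESeq2 gave no adjusted p for Mcm4. With library totals alone 1 gene of the whole table was called and the median of the tested members was 0.25, while that of all genes moved from 0.00 to 0.51; Mcm2, Mcm3, Mcm5, Mcm6, Mcm7, Pcna and Stmn1 turned to 0.23, 0.46, 0.15, 0.32, 0.13, 0.28 and 0.27, each below the shift of all genes. Without a filter 1 gene was called and DESeq2 called 17; the cause was not tested. With a library left out 0 genes were called, the members' median ran from -0.37 to -0.083 and Mcm3 from -0.43 to 0.12, positive without fed library 3 (0.12) or 5 (0.03). With the replicate block the median was -0.21 and 0 genes were called. The unadjusted p fell under 0.05 for 338 genes, for 535 with the block, 561 without fasted library 4 and 919 of 15661 without a filter. Leaving out libraries in turn for the classes and the mitotic sums was chosen after seeing the data: 10 to 14 members were near zero, the 14 without fasted library 1. Depth limits the scarce genes: from 19 to 27 of the 30 members had a count in a library.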

Other observations

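Scarce genes of the wider lists were also looked at by library, after the mitotic sums had been seen. The 14 near-zero spindle and kinetochore genes, which include the kinesins Kif11 and Kif2c and the kinetochore genes Ndc80 and Nuf2, had 33 counts in fasted library 1 (7.72 CPM), with 9 of the 14 seen there. In the other fasted libraries they had 9, 17 and 6 counts (1.76, 3.13 and 1.14 CPM), and in fed libraries 1, 3, 4 and 5 they had 2, 16, 51 and 6 counts (0.892, 2.17, 3.77 and 2.06 CPM). All 41 near-zero genes of the wider lists together, these included, stood at 18.0 CPM in fasted library 1, below fed libraries 3 and 4 (19.1 and 20.3 CPM), and between 7.58 and 12.2 CPM in the remaining libraries. Mybl2, which encodes the activator B-Myb of mitotic genes, had 10 counts in fasted library 1 and 0 counts in the other 7 libraries. Foxm1, a transcription factor gene of the same list, went the other way. It had 0 counts in fasted library 1 and 9, 24 and 1 counts in fed libraries 3, 4 and 5.

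Expected numbers after drawing 1797504 counts from each library put the mitotic genes seen at 10.7 of 14 in fasted library 1 and between 2.58 and 7.67 in the others, against 11 and between 4 and 11 at full depth.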
